A study of Mus musculus with 6 samples.

Results

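The genes described here are the 8 core genes of TGF-beta signalling on an immune gene panel of 770 genes: the ligand genes Tgfb1, Tgfb2 and Tgfb3, the receptor genes Tgfbr1 and Tgfbr2, and the signal transducer genes Smad2, Smad3 and Smad4. They were taken by symbol from the deposited table, and all 8 were present. The samples were primary oral squamous cell carcinomas of mice, induced with 4NQO (a chemical carcinogen that causes tumours of the tongue and mouth), and RNA came from formalin-fixed, paraffin-embedded tissue. The control group was vehicle (3 samples), and the treated group was agonistic anti-CD40 (3 samples), an antibody that activates CD40, a receptor of antigen-presenting cells. All 6 samples share the carcinogen. The sources used here do not give the mouse strain, sex or age, the antibody clone, its dose or the time of sampling. Nothing says that each sample is a different animal, so the p-values reflect sample-to-sample spread that may in part be technical.

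TGF-beta ligands are secreted in a latent form bound to their own propeptide and are released in the matrix by integrins, proteases or thrombospondin. The free dimer binds the type II receptor, which phosphorylates the type I receptor, and that kinase phosphorylates SMAD2 and SMAD3, which join SMAD4 and enter the nucleus to control target genes. In squamous epithelium the pathway is known to restrain growth early in carcinogenesis. In the stroma it drives matrix production and dampens T cell and dendritic cell responses.

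Values are log2 normalized counts, and each difference is the anti-CD40 mean less the vehicle mean. The table is already normalized, and whole counts could be recovered from it: they summed to between 333400 and 578598 per library over the 770 genes. Background, set 2 SD above the mean count of the 8 negative controls, lay between 5.57 and 6.52 on the log2 scale. Each of the 8 genes lay above it in all 6 libraries, with recovered counts from 93 (Tgfb2 in vehicle 2) to 1447 (Tgfbr2 in vehicle 1). The squamous epithelial markers measured here, Cdh1, Epcam, Egfr and Itga6 of the 9 listed, were above background in every library, as were all 5 measured fibroblast and all 7 endothelial markers, so these are mixed tissues. In such bulk samples, fewer cells of a type and less RNA per cell cannot be told apart.

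None of the 8 genes passed the test of anti-CD40 against vehicle. Smad3 lay highest in anti-CD40 tumours relative to vehicle, by 0.63 or 1.55-fold, and Tgfb3, Tgfbr1, Smad4 and Tgfbr2 lay 0.22 to 0.30 higher in the mean, whereas Tgfb1, Tgfb2 and Smad2 differed by no more than 0.050 in either direction. Limma, adjusted over all 770 genes by the Benjamini-Hochberg method, called 0 of the 8 at an adjusted p of 0.05, beside 0 of all genes (0%). At an unadjusted p under 0.05 it again held 0 of the 8, beside 25 of all genes (3.25%). The groups did not overlap for 2 of the 8, Tgfbr1 and Smad3, both higher in anti-CD40 tumours. Over all 770 genes 10.3% had groups that did not overlap (6.75% higher and 3.51% lower in anti-CD40 tumours). Of the 8 genes, 5 lay higher in the mean, beside 54.5% of all genes, and their median difference was 0.24, beside 0.038 over all genes. Their SD within a group had a median of 0.17, beside 0.39 over all genes. These sets are unlike, since only 523 of the 770 genes were above background in all 6 libraries, as the 8 were.

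**Figure D1:**
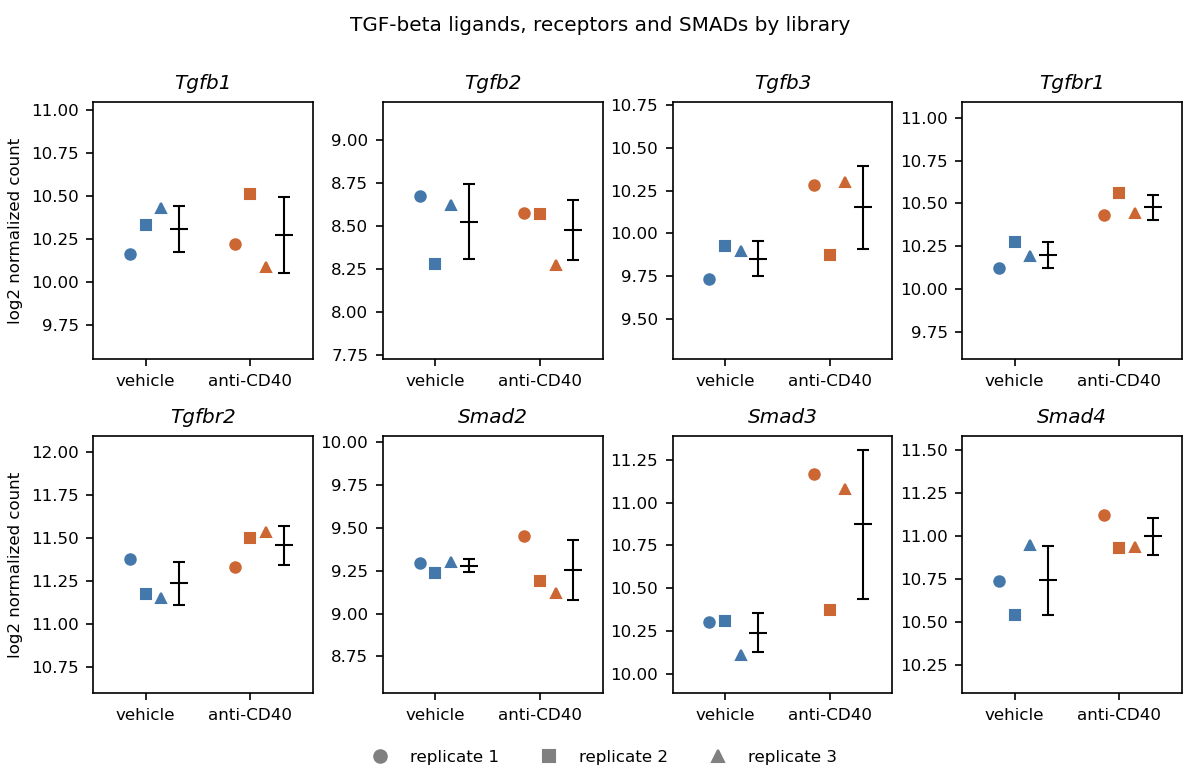
Log2 normalized counts of the 8 genes in each library, with vehicle in blue and anti-CD40 in orange, marker shapes for the replicate numbers, and group means with SD as black bars (n = 3). Every panel spans 1.5 log2 units. The 3 anti-CD40 libraries lie above all vehicle libraries for Tgfbr1 and Smad3, and Smad3 and Tgfb3 are high in anti-CD40 1 and 3 but not in anti-CD40 2.

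Of the ligands, Tgfb1, the isoform made by most immune cells and platelets, measured 10.16, 10.33 and 10.43 in vehicle replicates 1 to 3, against 10.22, 10.52 and 10.09 in anti-CD40 replicates 1 to 3. All sets of values below follow this order. The anti-CD40 libraries held both the highest and the lowest value. The difference was −0.034 (SE 0.22), with a 95% confidence interval from −0.56 to 0.49, which covers folds from 0.678 to 1.41 (limma adjusted p = 0.988).

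Tgfb2, an isoform known from epithelium and mesenchyme, was 8.67, 8.28 and 8.62 in vehicle and 8.58, 8.57 and 8.27 in anti-CD40 libraries. Each group had 1 low library, vehicle 2 and anti-CD40 3, and these had the fewest recovered Tgfb2 counts, 93 and 109. The difference was −0.050 (SE 0.23), with an interval from −0.59 to 0.49 (limma adjusted p = 0.974).

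Tgfb3, an isoform that is needed for palate fusion, was 9.74, 9.93 and 9.90 in vehicle and 10.28, 9.87 and 10.30 in anti-CD40 libraries. Anti-CD40 1 and 3 stood above every vehicle library, while anti-CD40 2 lay within the vehicle range, so the groups overlapped. The difference was 0.30 (SE 0.23), with an interval from −0.23 to 0.83 (limma adjusted p = 0.974). With 1 library left out it lay between 0.22 (anti-CD40 3) and 0.44 (anti-CD40 2).

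Of the receptors, Tgfbr1, which encodes the type I receptor kinase ALK5, showed the tightest groups among the 5 genes with higher means. It was 10.12, 10.27 and 10.19 in vehicle and 10.43, 10.56 and 10.44 in anti-CD40 libraries. The lowest anti-CD40 library lay 0.16 above the highest vehicle library. The difference was 0.28 (SE 0.20), or 1.21-fold, with an interval from −0.19 to 0.75 (limma adjusted p = 0.974). An exact two-sided permutation test over the 6 libraries gave p = 0.1, the smallest that 3 against 3 allows. With 1 library left out the difference stayed between 0.24 and 0.32. The groups of Tgfbr1 overlapped once each library was centred on its median over all genes or quantile normalized, and stayed apart after centring on the 20 housekeeping genes (by 0.17) and with limma-voom on the recovered counts (by 0.018).

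Tgfbr2, which encodes the ligand-binding type II receptor, was 11.38, 11.18 and 11.15 in vehicle and 11.33, 11.50 and 11.54 in anti-CD40 libraries. Vehicle 1 lay above anti-CD40 1, so the groups overlapped, while vehicle 2 and 3 lay below all 3 anti-CD40 libraries. The difference was 0.22 (SE 0.21), with an interval from −0.27 to 0.71 (limma adjusted p = 0.974).

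Of the transducers, Smad2, which encodes a receptor-phosphorylated SMAD, was 9.30, 9.23 and 9.30 in vehicle and 9.45, 9.19 and 9.12 in anti-CD40 libraries. The vehicle libraries lay between anti-CD40 1 and the other two. The difference was −0.025 (SE 0.21), with an interval from −0.52 to 0.47 (limma adjusted p = 0.988).

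Smad3 encodes the other receptor-phosphorylated SMAD, which unlike the main form of SMAD2 binds DNA directly. Its value was 10.31, 10.31 and 10.11 in vehicle and 11.17, 10.37 and 11.08 in anti-CD40 libraries. Anti-CD40 1 and 3 stood well above all others, and anti-CD40 2 lay only 0.066 above vehicle 2, less than the counting SD of 0.074 in vehicle 2. The recovered counts behind these values were 687, 385 and 641 in vehicle and 1002, 542 and 771 in anti-CD40 libraries. The difference was 0.63 (SE 0.27), or 1.55-fold, with an interval from −0.0090 to 1.27, which covers folds from 0.994 to 2.41. Limma gave an unadjusted p of 0.0525, the 28th lowest of the 770 genes, and an adjusted p of 0.974, and the exact two-sided permutation p was 0.1. Leaving out anti-CD40 1, 2 or 3 gave differences of 0.48, 0.88 and 0.53. After quantile normalization, centring on library medians or limma-voom on the recovered counts, the 2 groups of Smad3 overlapped.

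Smad4, which encodes the shared partner SMAD, was 10.74, 10.54 and 10.95 in vehicle and 11.12, 10.93 and 10.94 in anti-CD40 libraries. Vehicle 3 lay 0.017 above the lowest anti-CD40 library, and the other vehicle libraries lay below all 3. The difference was 0.25 (SE 0.22), with an interval from −0.26 to 0.77 (limma adjusted p = 0.974), and it was 0.15 without vehicle 2.

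**Figure D2:**
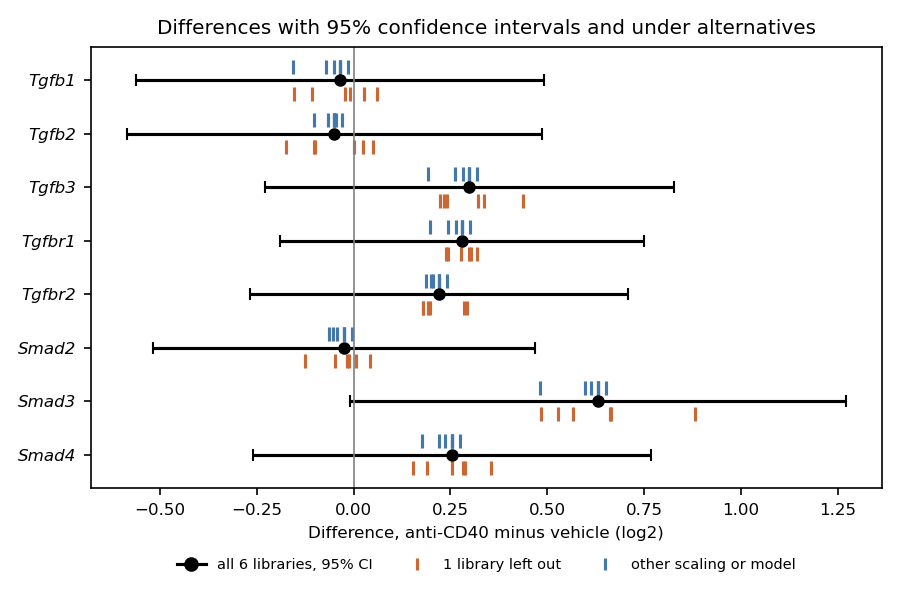
Differences of the 8 genes on the log2 scale (black points) with 95% confidence intervals from limma on all 6 libraries (black bars). Orange ticks are the differences with 1 library left out, and blue ticks those under other scalings or models. Every interval crosses 0, that of Smad3 narrowly (from −0.0090 to 1.27), and the ticks of Tgfb1, Tgfb2 and Smad2 lie close to 0, with some on each side of it when a library is left out.

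The balance between members was also compared inside each library, where the scaling of the library cancels. These are differences on the log2 scale between 2 probes and do not rank the transcripts by abundance. Smad3 minus Smad2 was 1.01, 1.08 and 0.81 in vehicle and 1.71, 1.19 and 1.96 in anti-CD40 libraries. All 3 anti-CD40 libraries lay above all 3 vehicle libraries, by 0.66 in the mean, between 0.49 and 0.87 with 1 library left out. The exact two-sided permutation p was 0.1, the smallest possible, and 0.4 after Benjamini-Hochberg adjustment over the 4 pairs compared. Smad2 alone differed by −0.025 and Smad3 by 0.63, so this contrast is mostly the Smad3 difference again.

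Tgfb3 minus Tgfb1 was −0.43, −0.41 and −0.54 in vehicle and 0.060, −0.64 and 0.21 in anti-CD40 libraries. Anti-CD40 1 and 3 lay above the vehicle libraries and anti-CD40 2 below them, a difference of 0.33 in the mean, which became 0.16 when anti-CD40 3 was left out and 0.59 when anti-CD40 2 was (exact two-sided permutation p = 0.4, adjusted 0.8). The other pairs differed by −0.015 for Tgfb2 minus Tgfb1 (exact two-sided permutation p = 0.9) and −0.059 for Tgfbr2 minus Tgfbr1 (exact two-sided permutation p = 0.6), with adjusted values of 0.9 and 0.8.

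**Figure D3:**
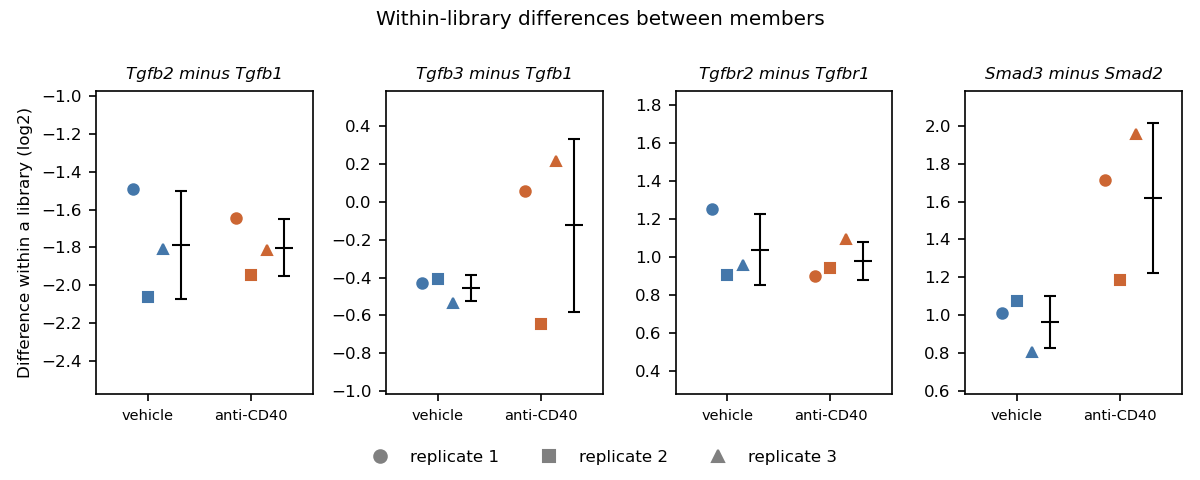
Differences between 2 members within each library on the log2 scale, with vehicle in blue and anti-CD40 in orange, marker shapes for the replicate numbers, and group means with SD as black bars (n = 3). Smad3 minus Smad2 is higher in all 3 anti-CD40 libraries, whereas Tgfb3 minus Tgfb1 is spread from −0.64 to 0.21 there.

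Across the 6 libraries Smad3 and Tgfb3 had the most similar pattern of any pair of the 8 genes, with a Pearson correlation of 0.925 on the log2 values. Tgfb1 and Smad3 had the lowest, −0.63. These are descriptions over 6 points that share libraries, scaling and group. Among the other genes above background in all libraries (522 candidates for each member), those most like Smad3 were Cmklr1, which encodes the chemerin receptor (0.994), and Lyve1, a hyaluronan receptor gene of lymphatic endothelium and some macrophages (0.969). Those most like Tgfb3 were the MAP kinase phosphatase gene Dusp4 (0.953) and the angiogenic growth factor gene Vegfa (0.930). Dusp4 was 7.44, 7.43 and 7.42 in vehicle and 8.18, 7.45 and 8.35 in anti-CD40 libraries. It was thus high in the same pair of anti-CD40 libraries as Tgfb3 and Smad3.

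For Tgfbr1 the nearest genes were C5ar1, which encodes the C5a receptor (0.909), and Irak3, an inhibitor of Toll-like receptor signalling (0.901). For Tgfbr2 they were the complement gene C4b (0.958) and the ADP-ribosyl cyclase gene Bst1 (0.954). Tgfb1 was nearest to the transcription factor gene Nfatc3 (0.925) and the urokinase gene Plau (0.874), and Tgfb2 to the RNA polymerase II subunit gene Polr2a (0.973) and the tetraspanin gene Cd9 (0.852). Smad2 was nearest to the integrin gene Itga1 (0.916) and the kinase gene Map4k2 (0.897), and Smad4 to the kinase gene Map2k4 (0.922) and the growth factor receptor gene Igf1r (0.892).

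Cell type markers varied between the same libraries. Levels below are sums of linear normalized counts over the measured markers of a list. The 4 squamous epithelial markers summed to 13008, 14679 and 19612 in vehicle and to 11004, 14974 and 10292 in anti-CD40 libraries, lowest in anti-CD40 1 and 3, in which Smad3 and Tgfb3 were highest. Cdh1 and Itga6 were likewise lowest in those libraries, whereas Egfr was highest in anti-CD40 3 (10.26) and Epcam in anti-CD40 1 (11.34) lay above vehicle 1 (10.16). The 2 measured platelet markers of 6, Ppbp and Itga2b, summed to 193, 945 and 203 in vehicle and to 1224, 488 and 1864 in anti-CD40 libraries. The sum was highest in anti-CD40 1 and 3, where it was mostly Ppbp. Itga2b did not wholly follow it, with vehicle 2 (7.75) above anti-CD40 1 (7.57). The 7 T cell markers (4 of them above background in all libraries, Cd2 in none) summed to 849 to 1127 in vehicle and 549 to 991 in anti-CD40 libraries, with 549 and 706 in anti-CD40 1 and 3. Cd5 was the largest part of each sum and differed by −0.83 (limma adjusted p = 0.974). It was the only T cell marker whose groups did not overlap, beside 10.3% of all 770 genes. The others differed by −0.33 (Cd3d) to −0.047 (Cd2), and Cd3e was highest in anti-CD40 2 (7.51).

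The 5 measured mast cell markers of 6 (2 above background in all libraries, Ms4a2 in none) summed to 579 to 797 in vehicle and 811 to 1033 in anti-CD40 libraries, and the 7 endothelial markers to 8809 to 12771 and 9432 to 14290. The 5 fibroblast markers of 8 measured, Col1a1, Col3a1, Pdgfrb, Fap and Thy1, summed to 16272 to 30489 in vehicle and 22509 to 36393 in anti-CD40 libraries. The sum was highest in anti-CD40 2, in which Tgfbr1 was highest and Smad3 lowest of the group. Col1a1 and Col3a1 made up most of each sum. In anti-CD40 2, Thy1 (10.32) was likewise highest of the group, whereas Pdgfrb (8.78) and Fap (8.515) were lowest. The 7 macrophage markers of 8 (6 above background in all libraries) summed to 2224 to 3731 and 3487 to 3964. The mast cell sums were the only ones of the 11 lists whose groups did not overlap, beside 10.3% of all 770 single genes. Of the 5 mast cell markers only Fcer1a had groups that did not overlap. Cma1, the largest part of the sum, overlapped, and Tpsab1 lay lower in the anti-CD40 mean (−0.20). Regulatory T cell markers (4 of 5 measured) summed to 832 to 1048 and 813 to 1097. B cell markers (6 of 6, Cd79a and Cd22 above background in none) summed to 194 to 1015 and 209 to 530. The salivary gland markers Dmbt1 and Ccl28 summed to 1095, 127797 and 14702 in vehicle and 154261, 37022 and 15249 in anti-CD40 libraries. Those sums were nearly all Dmbt1 and were highest in anti-CD40 1 and vehicle 2. Neutrophil granule markers (6 of 8, only S100a8 above background in all libraries) summed to 28525 to 146264 and 28110 to 149434. S100a8, at 14.77 to 17.18 log2, made up nearly all of the neutrophil sum, and other members ran differently, with Camp at 4.27, 10.81 and 4.84 in vehicle and 11.17, 8.87 and 5.14 in the treated samples. The part of these cell types in the levels of the 8 genes was not tested.

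Other genes of the pathway were counted from 4 lists, and limma called 0 of their 32 measured genes in either direction. Of 5 genes of ligand activation and matrix handling, 4 lay higher in the mean, with a median of 0.49. Leaving out vehicle 3, anti-CD40 3 or vehicle 2 moved that median to 0.30, 0.32 and 0.75, and when anti-CD40 2 was left out 3 of the 5 lay higher. Itgb3, which encodes the β subunit of an integrin that can release latent ligand, was 6.91, 8.39 and 7.40 in vehicle and 8.50, 8.11 and 8.49 in anti-CD40 libraries, a difference of 0.80 (SE 0.39), which became 1.21 when vehicle 2 was left out and 0.47 when vehicle 1 was. The platelet marker Ppbp was also lowest in vehicle 1 and 3 (6.2 and 6.7, against 8.6 to 10.6 elsewhere). The part of platelets in the level of Itgb3 was not tested. Thbs1, which encodes the latent TGF-beta activator thrombospondin 1, was 10.65, 10.05 and 9.90 in vehicle and 11.02, 9.99 and 12.07 in anti-CD40 libraries. Like Smad3 and Tgfb3 it was high in anti-CD40 1 and 3, and its difference of 0.83 (SE 0.51) became 0.31 when anti-CD40 3 was left out and 1.35 when anti-CD40 2 was. The integrin gene Itgb1 differed by 0.29 (0.18 without anti-CD40 1), with groups that did not overlap, and Plau, whose product urokinase generates plasmin, by −0.64 (−1.19 when anti-CD40 2 was left out and −0.34 when anti-CD40 1 was).

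Of 13 measured target genes, 9 had higher and 4 lower means in anti-CD40 tumours, at a median of 0.13, but without vehicle 3 the counts were 6 and 7 and the median −0.061. Groups did not overlap for 4 of them, 3 higher and 1 lower, where all genes gave 10.3% (6.75% higher and 3.51% lower). Snai1, which encodes a repressor of epithelial genes, was 6.41, 6.32 and 5.98 in vehicle and 6.48, 7.19 and 6.83 in anti-CD40 libraries, above background in 5 of 6, a difference of 0.60 (SE 0.27). Cdh1, which encodes E-cadherin, was 12.51, 12.25 and 12.41 in vehicle and 12.01, 12.13 and 11.94 in anti-CD40 libraries, a difference of −0.36 (SE 0.21). Within the anti-CD40 group, Snai1 and Cdh1 were both highest in anti-CD40 2. A link between the 2 genes was not tested. The collagen genes Col4a1 and Col3a1 differed by 0.40 (SE 0.22) and 0.43 (SE 0.24, 0.29 without anti-CD40 2). Cdh1 and Col3a1 are also in the marker lists above. These 4 genes had an adjusted p of 0.974 with limma.

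Of 12 other signalling genes, 7 lay higher and 5 lower, with a median of 0.074, and after quantile normalization 5 lay higher and 7 lower, with a median of −0.012. Tab1, which encodes the activating partner of the kinase TAK1, had groups that did not overlap, 9.67, 9.76 and 9.52 in vehicle and 9.50, 9.31 and 9.26 in anti-CD40 libraries, a difference of −0.29 (SE 0.21). Mapk8, which encodes the kinase JNK1, differed by 0.31 (0.13 when anti-CD40 1 was left out and 0.52 when anti-CD40 2 was), and the coactivator gene Ep300 by 0.12 (0.061 when anti-CD40 1 was left out). Of the other receptors only the coreceptor genes Nrp1 (0.20) and Eng (0.099) were measured, and without vehicle 3 Eng differed by −0.052. The value of Nrp1 was 0.017 without anti-CD40 1, 0.027 without vehicle 3 and 0.44 without vehicle 1.

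**Figure D4:**
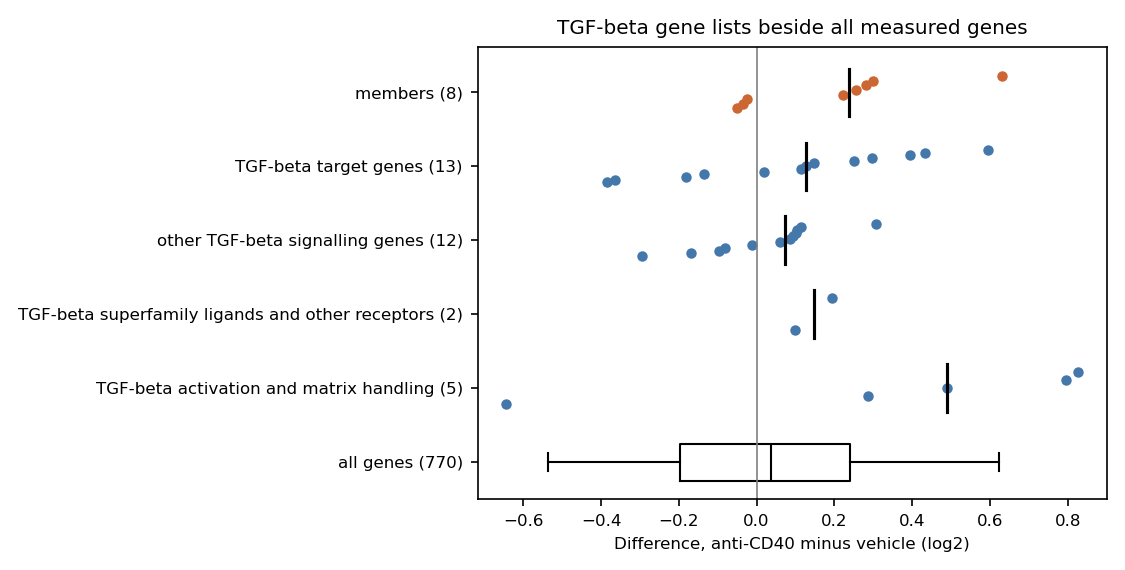
Differences on the log2 scale for each measured gene of the 4 TGF-beta lists (blue points) and for the 8 genes (orange points), with medians as black lines. The box shows all 770 genes (median, quartiles, whiskers from the 5th to the 95th percentile). Most points lie inside the whiskers, and the 5 activation genes are the most spread, from −0.64 to 0.83.

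The promoters of the 2 genes whose groups did not overlap are shown here as the 250 bases upstream of the start site, from RefSeq on GRCm38.p6, with capitals marking matches to the GC box bound by SP1 (GGGCGG on either strand). Tgfbr1 lies on the plus strand at chr4:47352972-47353221 and Smad3 on the minus strand at chr9:63757995-63758244, both written 5′ to 3′ along the gene.
Tgfbr1: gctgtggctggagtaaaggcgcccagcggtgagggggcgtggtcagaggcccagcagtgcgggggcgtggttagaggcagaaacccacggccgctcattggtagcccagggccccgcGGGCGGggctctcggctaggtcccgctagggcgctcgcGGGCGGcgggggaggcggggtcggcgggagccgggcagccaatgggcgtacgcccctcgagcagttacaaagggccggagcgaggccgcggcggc
Smad3: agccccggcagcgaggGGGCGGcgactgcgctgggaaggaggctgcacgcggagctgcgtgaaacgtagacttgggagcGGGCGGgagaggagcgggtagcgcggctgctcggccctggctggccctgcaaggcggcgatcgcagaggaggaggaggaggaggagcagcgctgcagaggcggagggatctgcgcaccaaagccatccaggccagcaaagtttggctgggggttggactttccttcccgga
Both windows are rich in G and C (74.8% and 69.2%, beside a median of 52% over 27025 genes) and hold 2 GC boxes each, a motif found in 33% of all such windows. Neither holds a TATA box (TATAAA, 13% of windows), an AP-1 site (TGANTCA, 6.85%) or a SMAD box (CAGAC, 42.2%), each searched on both strands. Of the 5 members with a window in the table, Tgfb1 has 5 GC boxes and no TATA box, and Tgfb2 has a TATA box that starts 31 bases upstream, 2 SMAD boxes and no GC box. Tgfbr2 has 1 SMAD box and no GC box. A match is a run of letters and not a measured binding site.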

How the data were processed

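RNA from 3 vehicle and 3 anti-CD40 tumour samples was measured on a panel with 770 genes, 6 positive and 8 negative control rows. The authors deposited log2 normalized counts, per the file name. Platform, software and normalization: not given in the sources used here. Each deposited log2 value was the log2 of a whole count, multiplied by a factor per library, plus 4.55: all 4704 came out within 0.05 of a whole count. Factors ran from 1.72 to 3.28. Groups follow the sample titles. The deposited values of all genes were fitted with limma 3.58.1 (R 4.3.3; lmFit and eBayes, two-sided, Benjamini-Hochberg over 770 genes, threshold 0.05), and the procedure was tested on simulated data. Counting SDs cover counting error only. No replicate pair was a duplicate (chi-square of counts per degree of freedom at least 64.9). Plots used Python 3.11.15 with matplotlib 3.10.9. Alternatives were other scalings, limma-voom on the recovered counts (TMM factors), a background filter, limma-trend, a replicate block and leaving out each library. Named genes are the 8 members, up to 4 genes of lowest p per pathway list (1 of them is not reported here), and the 2 genes most correlated with each member; Dusp4's values were chosen after they were seen. Members and lists were chosen with earlier results of these data known. All 8 symbols are current in RefSeq (GRCm38.p6), and 5 had a promoter window. In this window table, 1 window per gene was used, that of its outermost start.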

Additional observations from a re-analysis of the deposited data

How the results depend on the processing

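No gene passed the adjusted threshold under any of the 7 other settings or with any 1 library left out. With limma, genes at an unadjusted p under 0.05 numbered 25 with all libraries on the deposited values, 52 after quantile normalization, 42 after centring on library medians, and, with 1 library left out, 47 (vehicle 2), 43 (vehicle 3), 49 (anti-CD40 2) and 13 (anti-CD40 1). Tgfb3, Tgfbr1, Tgfbr2, Smad3 and Smad4 kept a positive difference under all of these. The unadjusted limma p of Smad3 was 0.0447 after centring on housekeeping genes, 0.0476 among genes above background in at least 3 libraries, 0.0261 with limma-trend and 0.0107 without anti-CD40 2, with an adjusted p of at least 0.610 in each. It stayed above 0.05 elsewhere: 0.0514 with limma-voom, 0.0855 after centring on library medians and 0.0898 after quantile normalization. Leaving out vehicle 1, 2 or 3 gave 0.0855, 0.0809 and 0.120, and leaving out anti-CD40 1 or 3 gave 0.161 and 0.158. With 1 library left out, differences ranged from −0.15 to 0.060 for Tgfb1 (0.026 without vehicle 3), from −0.17 to 0.051 for Tgfb2 (0.025 without vehicle 1 and 8.7e-05 without vehicle 3) and from −0.12 to 0.042 for Smad2 (0.0076 without anti-CD40 2). Tgfb2 minus Tgfb1 ranged from −0.15 to 0.13 (0.057 without anti-CD40 2) and Tgfbr2 minus Tgfbr1 from −0.13 to 0.048. With the replicate block, 0 genes were called and Smad3 had an unadjusted p of 0.0723. Same-numbered libraries did not deviate together (correlations of −0.43, 0.069 and 0.28 over all genes), so the numbers were not taken as a pairing. A sample size of 3 per group limits these comparisons: every interval above spans at least 0.94 log2.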
